A study of Mus musculus with 6 samples.

Results

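The clustered Hox genes encode the homeodomain transcription factors that give cells along the body and limb axes their position. They were followed here in primary mouse hindlimb myoblasts lacking Hdac11. Members were taken by name, as every row of the deposited gene table called Hoxa, Hoxb, Hoxc or Hoxd plus a number, whatever its level. That gave 32 of 21778 genes, with 11 in Hoxa, 8 in Hoxb, 9 in Hoxc and 4 in Hoxd. RefSeq lists 39 such genes in the mouse, and the other 7 (Hoxb1, Hoxb13, Hoxd1 and Hoxd10 to Hoxd13) had no row and were not analysed here.

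The cells were myoblasts grown from satellite cells of C57BL/6 hindlimb muscle, sorted for alpha7-integrin and CD34, and harvested after 24 h (day 1) in medium with 2% horse serum that starts fusion into myotubes. The first group was 3 libraries from Hdac11 knockout (KO) mice, in which Sox2-driven Cre had removed a floxed exon 3 in the whole animal, so that only a truncated product of 59 of the 349 residues is predicted. The other group was 3 libraries from wild-type (WT) littermates. KO mice came from crosses of heterozygotes, and the labels do not give ages, nor whether a library is 1 animal or several. The p-values below therefore measure the spread between these 6 libraries. Hdac11 is the class IV histone deacetylase, and the study asked how its loss alters gene expression in myoblasts.

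In mammals the Hox genes lie in 4 clusters on different chromosomes, and genes at the same place in each cluster form a numbered paralogue group. Low-numbered genes are switched on early and anteriorly, and high-numbered ones late and posteriorly or towards the tip of a limb. In mouse limbs, groups 10, 11 and 13 are needed for the upper, middle and end segments. Satellite cells and the myoblasts grown from them keep a Hox profile of the muscle they came from. The labels give the hindlimb as the source, not single muscles, and the part of muscle origin in these levels was not tested.

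Library totals ran from 16742457 to 20287743 counts in KO and from 19673388 to 22835394 counts in WT. Levels are given as counts per 1000000 (CPM), relative to library sizes scaled by TMM, the trimmed mean of M-values. Hdac11, the targeted gene, had 33.5, 76.4 and 30.2 CPM in KO replicates 1, 2 and 3, against 63.0, 79.5 and 73.8 CPM in WT replicates 1, 2 and 3. The library labelled KO replicate 2 was thus inside the WT range. The table counts whole genes, not exons, so reads from outside exon 3 still count. Its log2 fold change was -0.63 ± 0.35 (SE; edgeR adjusted p = 0.380) with all libraries and -1.18 (adjusted p = 0.116) without that library. DESeq2 gave an adjusted p of 3.7e-05 without it. The Hox comparisons of genotypes below are therefore given with and without the library labelled KO replicate 2, except that limma-voom and the authors' deposited table are given for all libraries only.

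Of the 32 Hox genes, 15 reached 1 CPM in every library, which is the level called on here. Among them were Hoxa2 to Hoxa7, Hoxa9, Hoxa10 and Hoxa11, with Hoxb3, Hoxb4, Hoxc4, Hoxc6 and Hoxd8. The remaining 17 fell below 1 CPM in at least 1 library, 5 of them to 0 counts in at least 1. No Hox row was at 0 in all 6, and 30 reached 1 CPM somewhere. None of the rows in the other gene lists below was at 0 in all 6 either. A gene silent in every library may thus have no row, and Hox genes without a row were not called on or off. The number at 1 CPM or more was 22, 25 and 26 genes in KO replicates 1, 2 and 3, against 23, 17 and 22 genes in WT replicates 1, 2 and 3. WT replicate 2 had the fewest.

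**Figure D1:**
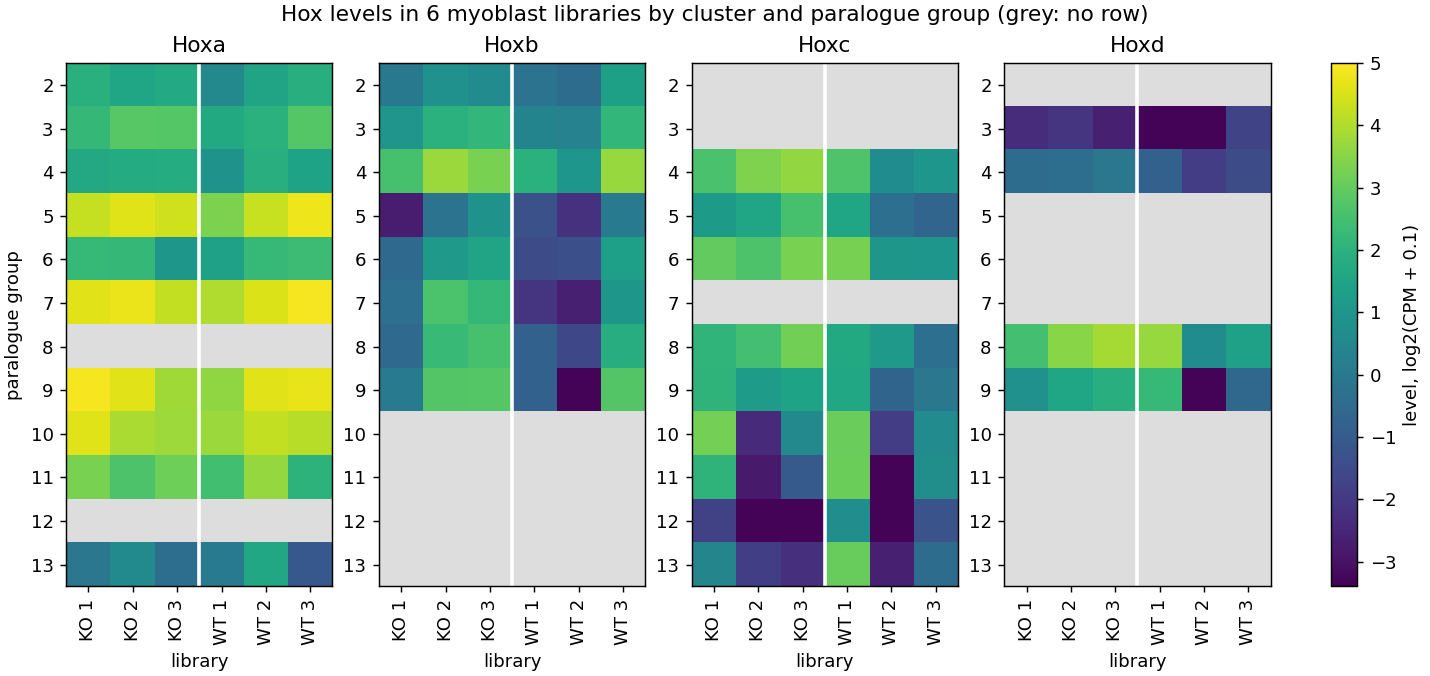
Heat maps of the Hox genes of paralogue groups 2 to 13 (rows), 1 panel per cluster; columns are the 3 KO and 3 WT libraries, and colour is log2(CPM + 0.1). Grey marks places with no row. Hoxa2 to Hoxa11 are at 1 CPM or more in all 6 libraries and Hoxa13 is not, while the middle and end of Hoxb, Hoxc and Hoxd change from library to library.

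Hoxa, on chromosome 6 between 52155367 and 52260880 (GRCm38), gave the most Hox reads. Its 11 genes summed to 128, 120 and 95.9 CPM in KO replicates 1, 2 and 3, against 69.9, 122 and 128 CPM in WT replicates 1, 2 and 3. That was between 49.4% and 68.7% of all Hox CPM in KO libraries and between 47.6% and 90.3% in WT libraries, counted in reads and not per length. From 10 to 11 of the 11 genes reached 1 CPM in each library.

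Per kilobase of exon (GENCODE vM1 exon lengths), Hoxa5, which patterns the neck and lung, had the highest mean level at 10.7 CPM per kb. Next came Hoxa7 at 8.12, Hoxa9 at 6.22 and Hoxa10 at 4.43 CPM per kb. The first of these did not separate from its neighbours: libraries ran from 5.41 to 14.5 CPM per kb for Hoxa5, from 5.58 to 10.3 for Hoxa7 and from 3.45 to 8.38 for Hoxa9. The highest gene of another cluster was Hoxd8, at 2.95 CPM per kb with libraries from 0.552 to 5.33. With coding length in place of exon length, 9 of the 10 highest genes were shared and Hoxa7 came before Hoxa9 and Hoxa5.

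Hoxa5 had 19.1, 24.0 and 21.1 CPM in KO replicates 1, 2 and 3, against 10.2, 19.5 and 27.2 CPM in WT replicates 1, 2 and 3. Hoxa7, a trunk-level gene, had 24.7, 27.0 and 18.9 CPM in KO replicates 1, 2 and 3, against 16.1, 23.7 and 29.7 CPM in WT replicates 1, 2 and 3. Hoxa9, at the start of the posterior genes that the limb reuses, had 29.3, 24.4 and 13.7 CPM in KO replicates 1, 2 and 3, against 12.1, 24.5 and 26.5 CPM in WT replicates 1, 2 and 3. For all 3 genes the genotypes overlapped and WT replicate 1 was the lowest library. Group means were 23.5 ± 4.19 CPM in KO and 23.2 ± 6.86 CPM in WT for Hoxa7 (SD, n = 3 each).

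The limb-segment genes of the cluster were picked out after their values were seen. Hoxa10, of the upper-segment group, had 24.2, 15.1 and 13.6 CPM in KO replicates 1, 2 and 3, against 13.3, 18.7 and 17.0 CPM in WT replicates 1, 2 and 3. Hoxa11, of the middle-segment group, had 9.86, 6.26 and 8.81 CPM in KO replicates 1, 2 and 3, against 5.34, 12.7 and 3.97 CPM in WT replicates 1, 2 and 3. Hoxa13, of the group that builds hands and feet, was low, with 0.846, 1.39 and 0.678 CPM in KO replicates 1, 2 and 3, against 0.947, 3.03 and 0.370 CPM in WT replicates 1, 2 and 3. WT replicate 2 was the highest library for Hoxa11 and Hoxa13, and the genotypes overlapped for all 3 genes. Hoxa2, Hoxa3, Hoxa4 and Hoxa6 lay between 1.38 and 6.93 CPM.

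Promoters of 1 gene per cluster are printed here so that the start of a gene with an even level (Hoxa7) can be set beside transcript starts of genes whose level changed between libraries (Hoxb8, Hoxc4, Hoxd8). Each is the 250 bases before a transcript start in RefSeq on GRCm38.p6, read in the direction of the gene. For Hoxa7 and Hoxd8 that start is the first base of the gene's RefSeq span. For Hoxb8 and Hoxc4 it lies 2504 and 16298 bases inside the span, which other transcripts extend upstream. RefSeq windows were matched for 16 of the 32 genes, as 17 windows. Capitals mark TGATNNAT, the core of a joint PBX and HOX site, or TGACAG, a MEIS site, on either strand.
Hoxa7 (chr6:52218574-52218823, minus strand): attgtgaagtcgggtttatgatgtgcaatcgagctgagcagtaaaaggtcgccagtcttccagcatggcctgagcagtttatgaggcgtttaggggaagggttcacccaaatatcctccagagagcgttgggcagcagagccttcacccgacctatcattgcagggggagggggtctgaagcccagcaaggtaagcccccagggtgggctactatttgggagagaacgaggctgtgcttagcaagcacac
Hoxb8 (chr11:96281655-96281904, plus strand): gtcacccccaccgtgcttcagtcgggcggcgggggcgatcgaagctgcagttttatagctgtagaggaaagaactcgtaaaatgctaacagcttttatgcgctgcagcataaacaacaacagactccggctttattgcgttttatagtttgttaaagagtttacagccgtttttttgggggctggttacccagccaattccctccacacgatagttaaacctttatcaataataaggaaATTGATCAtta
Hoxc4 (chr15:103034145-103034394, plus strand): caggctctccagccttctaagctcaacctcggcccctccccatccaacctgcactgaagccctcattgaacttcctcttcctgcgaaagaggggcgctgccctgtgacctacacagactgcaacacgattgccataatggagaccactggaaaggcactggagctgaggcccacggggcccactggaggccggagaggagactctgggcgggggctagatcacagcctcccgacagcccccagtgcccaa
Hoxd8 (chr2:74704365-74704614, plus strand): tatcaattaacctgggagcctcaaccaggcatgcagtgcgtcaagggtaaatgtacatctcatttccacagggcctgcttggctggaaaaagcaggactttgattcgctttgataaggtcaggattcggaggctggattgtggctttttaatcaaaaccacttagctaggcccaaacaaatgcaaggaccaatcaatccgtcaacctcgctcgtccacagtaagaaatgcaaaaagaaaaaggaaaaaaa
Of these 4 windows, Hoxb8 held 1 match, to TGATNNAT. Among all 17 Hox windows, 2 held TGATNNAT (11.8%, against 7.66% of 32536 promoter windows) and 2 held TGACAG (11.8%, against 15.8%). CG dinucleotides numbered 7 in the Hoxa7 window, 12 in Hoxb8, 8 in Hoxc4 and 6 in Hoxd8, with a median of 12 over the Hox windows and 6 over all windows. A match describes letters only.

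Hoxb, on chromosome 11 between 96271330 and 96354020, had 8 rows, of which Hoxb3 and Hoxb4 were on in every library. Its sum was 11.5, 38.8 and 37.3 CPM in KO replicates 1, 2 and 3, against 7.45, 4.43 and 35.2 CPM in WT replicates 1, 2 and 3. KO replicates 2 and 3 and WT replicate 3 were thus high, and the other 3 libraries low.

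Hoxb3, a hindbrain and neck-level gene, had 1.89, 3.85 and 4.41 CPM in KO replicates 1, 2 and 3, against 1.21, 1.16 and 4.39 CPM in WT replicates 1, 2 and 3. Hoxb4, known for expanding blood stem cells, had 5.78, 13.1 and 9.88 CPM in KO replicates 1, 2 and 3, against 3.83, 1.92 and 12.9 CPM in WT replicates 1, 2 and 3. Hoxb9, a gene of the rib-bearing trunk, had 0.946, 6.58 and 6.72 CPM in KO replicates 1, 2 and 3, against 0.474, 0 and 6.62 CPM in WT replicates 1, 2 and 3. The 0 in WT replicate 2 allows up to 0.175 CPM (3 counts), and the high libraries of both genotypes were level with each other for Hoxb9.

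Hoxb7 and Hoxb8, trunk genes chosen after their values were seen, followed the same libraries. Hoxb7 had 0.697, 5.99 and 4.52 CPM in KO replicates 1, 2 and 3, against 0.129, 0.0582 and 1.96 CPM in WT replicates 1, 2 and 3. Hoxb8 had 0.597, 4.70 and 5.82 CPM in KO replicates 1, 2 and 3, against 0.474, 0.233 and 3.49 CPM in WT replicates 1, 2 and 3. The highest library was 103 times the lowest for Hoxb7 and 25.0 times for Hoxb8. The lowest, WT replicate 2, had 1 count for Hoxb7 and 4 counts for Hoxb8, so both ratios are imprecise. Hoxb2, Hoxb5 and Hoxb6 stayed at or below 2.71 CPM in every library.

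Hoxc, on chromosome 15 between 102921131 and 103036856, had 9 rows, with Hoxc4 and Hoxc6 on in every library. Its sum was 38.9, 27.3 and 41.7 CPM in KO replicates 1, 2 and 3, against 51.7, 7.05 and 9.90 CPM in WT replicates 1, 2 and 3. WT replicate 1 was the highest of all 6 libraries and the other WT libraries were the lowest.

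The anterior Hoxc genes were lowest in WT replicates 2 and 3. Hoxc4, at the anterior end of the cluster, had 5.88, 10.3 and 12.3 CPM in KO replicates 1, 2 and 3, against 6.33, 1.51 and 1.91 CPM in WT replicates 1, 2 and 3. Hoxc6, of the neck-to-trunk boundary, had 7.77, 6.17 and 9.83 CPM in KO replicates 1, 2 and 3, against 9.60, 1.98 and 1.91 CPM in WT replicates 1, 2 and 3. For both, WT replicate 1 fell inside the KO range and the other WT libraries below it.

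Hoxc8, a trunk gene that also patterns motor neurons, had 4.18, 5.55 and 9.21 CPM in KO replicates 1, 2 and 3, against 3.14, 2.10 and 0.688 CPM in WT replicates 1, 2 and 3. Every KO library was above every WT library. Hoxc5 and Hoxc9 lay between 0.524 and 5.82 CPM, and for both the genotypes overlapped.

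The posterior Hoxc genes, singled out after their values were seen, were highest in replicate 1 of each genotype. Hoxc10, which is used in the hindlimb bud and not the forelimb bud, had 9.36, 0.0895 and 1.36 CPM in KO replicates 1, 2 and 3, against 8.35, 0.175 and 1.48 CPM in WT replicates 1, 2 and 3. Hoxc11, its hindlimb neighbour, had 4.03, 0.0447 and 0.395 CPM in KO replicates 1, 2 and 3, against 8.61, 0 and 1.59 CPM in WT replicates 1, 2 and 3. Replicate 1 of each genotype was thus high and replicate 2 of each was at 3 counts or fewer.

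Hoxc13, known for hair and nails, had 1.24, 0.179 and 0.113 CPM in KO replicates 1, 2 and 3, against 8.22, 0.0582 and 0.635 CPM in WT replicates 1, 2 and 3. The gap between libraries of 1 genotype was beyond counting error: the exact 95% Poisson interval of Hoxc10 was 8.07 to 10.8 CPM in KO replicate 1 and 0.0108 to 0.323 CPM in KO replicate 2. Such intervals cover counting error only. Hoxc12 reached at most 1.55 CPM, in WT replicate 1.

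Hoxd, on chromosome 2 between 74697763 and 74748271, had 4 rows. Hoxd8, a trunk-level gene, was the only one on in every library, with 5.58, 11.4 and 14.6 CPM in KO replicates 1, 2 and 3, against 12.9, 1.51 and 2.54 CPM in WT replicates 1, 2 and 3. Hoxd9, which acts with Hoxa9 in the upper forelimb, had 1.69, 2.77 and 3.61 CPM in KO replicates 1, 2 and 3, against 4.56, 0 and 0.582 CPM in WT replicates 1, 2 and 3. WT replicate 1 lay within the KO range for Hoxd8 and above it for Hoxd9, and the other WT libraries were lowest for both.

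Hoxd4, a neck-level gene, was low throughout, with 0.647, 0.671 and 0.847 CPM in KO replicates 1, 2 and 3, against 0.474, 0.175 and 0.265 CPM in WT replicates 1, 2 and 3. Every KO library was above every WT library, at levels below 1 CPM. Hoxd3 did not exceed 0.212 CPM and was dropped by the low-count filter, as was Hoxc12.

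**Figure D2:**
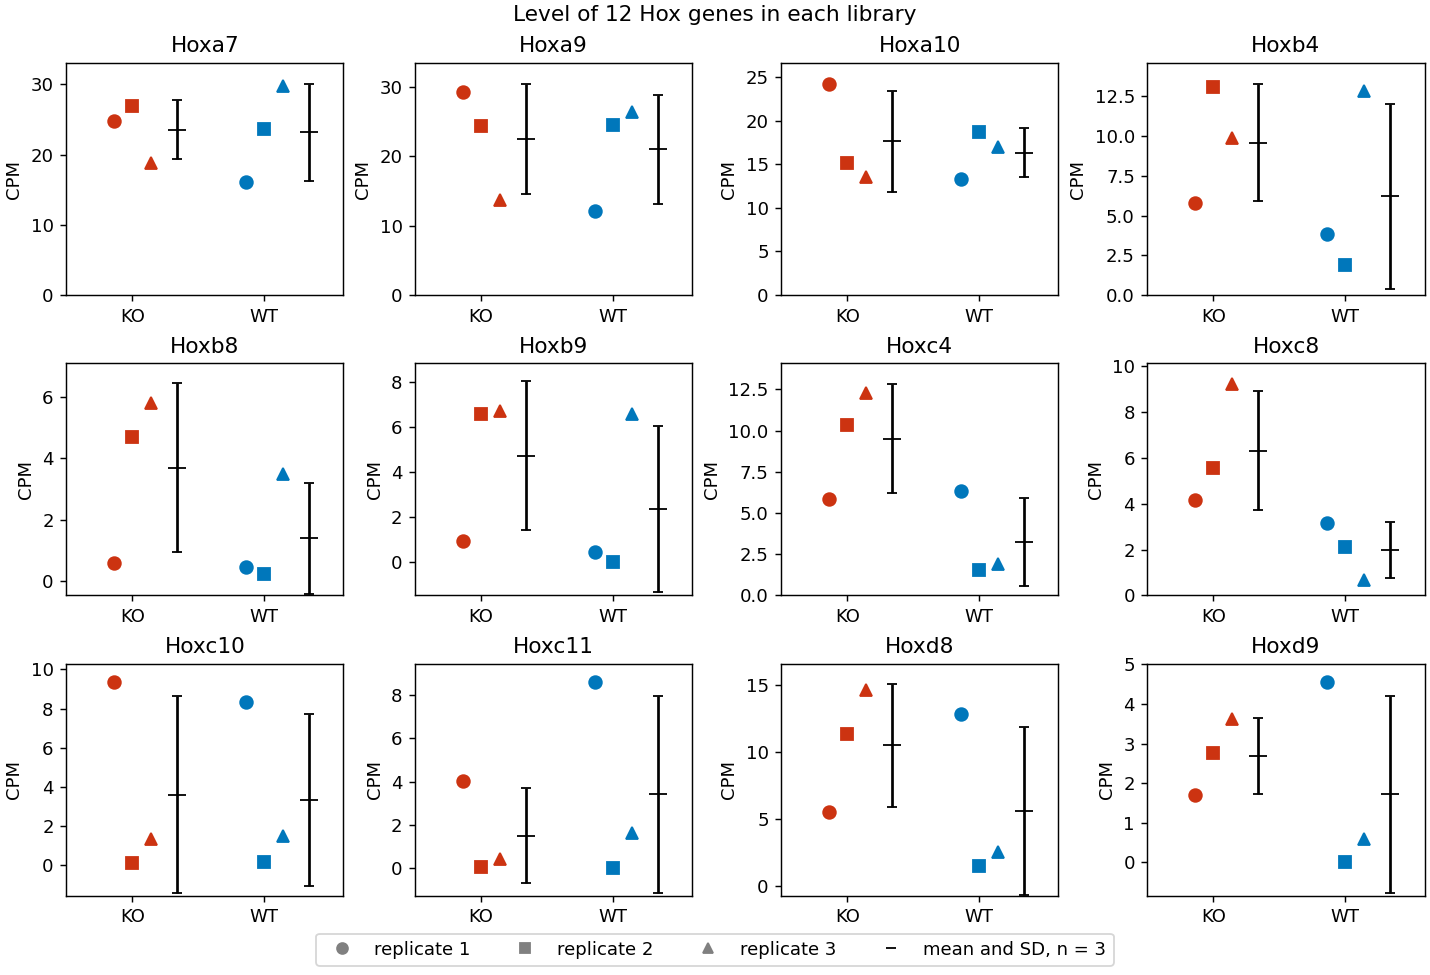
CPM of 12 Hox genes in each library, KO left of WT, with 1 marker shape per replicate number and the mean with its SD (n = 3) beside each group. Hoxa7, Hoxa9 and Hoxa10 overlap between genotypes; Hoxb8 and Hoxb9 are high in KO replicates 2 and 3 and WT replicate 3; Hoxc10 and Hoxc11 are high in replicate 1 of each genotype; Hoxc8 does not overlap.

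By paralogue group, groups 2 to 11 each had at least 1 gene on in every library, while groups 12 and 13 had none. Groups 2, 5, 7, 9, 10 and 11 were on through their Hoxa member alone. Group 8, which has no Hoxa gene, was on through Hoxd8, and group 4 had the most genes on, with Hoxa4, Hoxb4 and Hoxc4. Hoxa genes carried 91.3% of the summed mean CPM of group 7, 83.0% of group 10 and 16.7% of group 4, again in reads and not per length.

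The spread between libraries of 1 genotype was measured as the SD of log2 CPM within genotypes (prior count 2). Its median was 0.88 over the 30 Hox genes that passed the low-count filter. Over the 7563 tested genes with a mean CPM in the same range, 0.513 to 23.3, the median was 0.41 and the 95th percentile 1.23. Of the 30, 9 (30%) lay above that percentile, and 25 of 30 above the median. By cluster the median was 0.49 for Hoxa with 0 of 11 above the percentile, 1.45 for Hoxb with 5 of 8, 0.97 for Hoxc with 3 of 8 and 1.22 for Hoxd with 1 of 3. Hoxc11 (2.88), Hoxc10 (2.65), Hoxb9 (2.42) and Hoxc13 (2.28) had the widest spread of the 30. Neighbouring genes of a cluster are not independent, so these counts are a description.

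**Figure D3:**
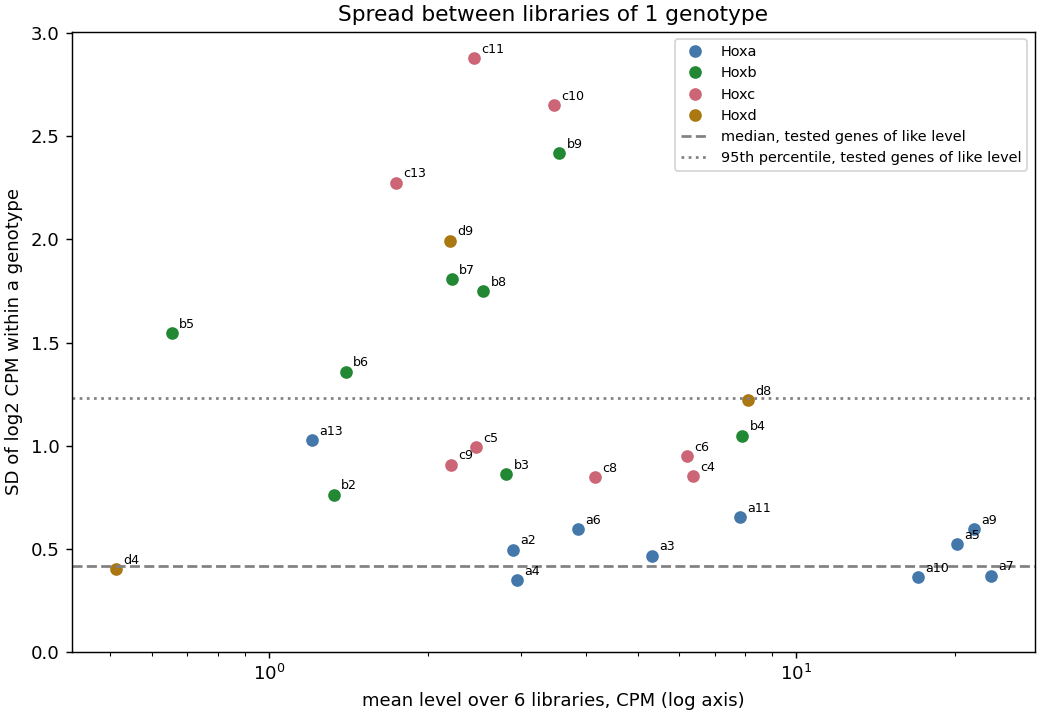
Each point is 1 tested Hox gene of paralogue groups 2 to 13, with its mean CPM over 6 libraries on the log x axis and the SD of log2 CPM within genotypes on the y axis; the dashed and dotted lines are the median (0.41) and 95th percentile (1.23) of tested genes of like level. All Hoxa points lie below the dotted line, and Hoxc11, Hoxc10, Hoxb9 and Hoxc13 at the top.

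Between genotypes, edgeR's quasi-likelihood test with Benjamini-Hochberg adjustment over all 14835 tested genes called 0 of the 30 Hox genes higher in KO and 0 lower. It called 0% of all tested genes in either direction. At an unadjusted p under 0.05, 3 of 30 (10%) were higher in KO, beside 9.88% of all tested genes, and 0 were lower, beside 7.83%. That share of higher genes is near the background. DESeq2 called 1 Hox gene higher, Hoxc8, where it called 4.17% of all genes, and 0 lower, where it called 2.21%. The authors' deposited table also called 1 higher, Hoxc8, beside 4.2% of its genes, and 0 lower, beside 2.13%. limma-voom called 0 in either direction, where it also called 0% of all tested genes in either direction. At its unadjusted p under 0.05, 4 Hox genes were higher, beside 10% of all tested genes, and 0 lower, beside 7.19%.

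The genes past the unadjusted threshold were Hoxc8, Hoxc4 and Hoxd4. For Hoxc8 the mean was 6.31 ± 2.60 CPM in KO and 1.98 ± 1.23 CPM in WT (SD, n = 3 each), a log2 fold change of 1.66 ± 0.57 (SE; edgeR adjusted p = 0.217). DESeq2 gave Hoxc8 an adjusted p of 0.0451, and the authors' deposited table a log2 fold change of 1.26 with an adjusted p of 0.0442. For Hoxc4 the mean was 9.51 ± 3.30 CPM in KO and 3.25 ± 2.67 CPM in WT, a log2 fold change of 1.54 ± 0.58 (edgeR adjusted p = 0.244). Hoxd4 averaged 0.722 ± 0.109 CPM in KO and 0.304 ± 0.153 CPM in WT, with a log2 fold change of 1.19 ± 0.47 (edgeR adjusted p = 0.255).

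Without the library labelled KO replicate 2, Hoxc8 alone passed the unadjusted threshold, with a log2 fold change of 1.75 (edgeR adjusted p = 0.301). That was 1 of 30, beside 9.52% of all tested genes, and 0 were lower, beside 6.02%. The values were then 1.47 for Hoxc4 and 1.25 for Hoxd4 (edgeR adjusted p = 0.355 for both). Neither edgeR nor DESeq2 called a Hox gene at the adjusted threshold in that fit, where DESeq2 called 4.02% of all genes higher and 1.09% lower.

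Counting libraries alone, 2 of 30 Hox genes (6.67%), Hoxc8 and Hoxd4, had every KO library above every WT library, beside 13.2% of all tested genes. None had every KO library below every WT library, beside 10.2%. Without the library labelled KO replicate 2 the same counts were 2, beside 19.3%, and 0, beside 17.6%. Both counts of higher genes were below the background share.

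As signs alone, 25 of the 30 tested Hox genes (83.3%) had a positive log2 fold change, beside 49.2% of all tested genes. The median was 0.50 over the Hox genes and -0.01 over all tested genes. By cluster it was 0.11 for Hoxa (8 of 11 positive), 0.87 for Hoxb (8 of 8), 0.91 for Hoxc (6 of 8) and 0.89 for Hoxd (3 of 3). Hoxb7 was at the top with 2.38 ± 1.20 (SE; edgeR adjusted p = 0.335) and Hoxc13 at the bottom with -2.53 ± 1.49 (adjusted p = 0.398). Genes of a cluster moved with the same libraries, so the signs are not separate observations. Without the library labelled KO replicate 2, 23 of 30 (76.7%) were positive, beside 47.9% of all tested genes, and the Hox median was 0.46. The cluster medians were then 0.09 for Hoxa (7 of 11 positive), 0.72 for Hoxb (7 of 8), 1.07 for Hoxc (6 of 8) and 0.83 for Hoxd (3 of 3). Hoxb7 was at 1.87 (edgeR adjusted p = 0.508) and Hoxc13 at -2.12 (adjusted p = 0.569) in that fit. In bulk RNA, fewer cells with a gene on and less RNA of it per cell cannot be told apart.

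**Figure D4:**
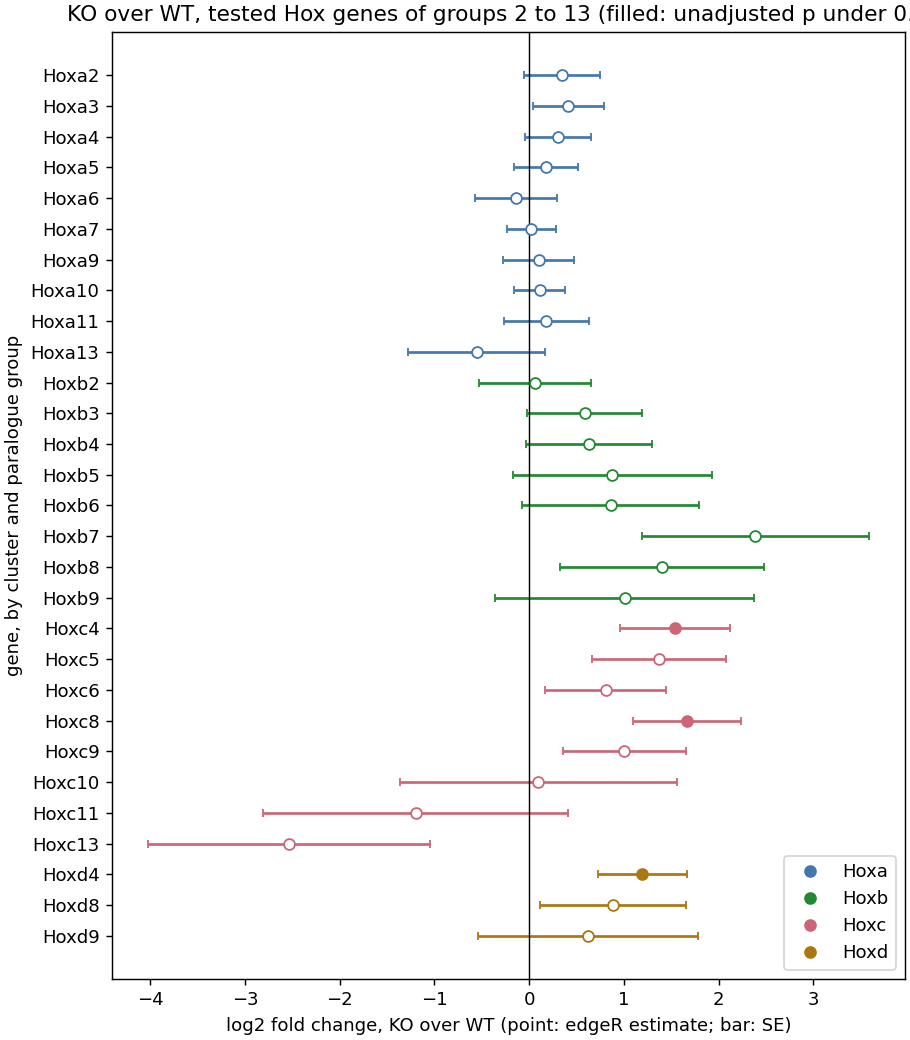
Log2 fold change of KO over WT (edgeR estimate, bar = SE) for tested Hox genes of paralogue groups 2 to 13, by cluster; filled points had an unadjusted p under 0.05. Hoxa points lie between -0.56 and 0.41, with Hoxa13 the lowest and the one with the longest bar (SE 0.73), and Hoxc4, Hoxc8 and Hoxd4 are filled.

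Counts of Hoxb, Hoxc and Hoxd genes past a threshold moved with single libraries. Without WT replicate 1, 8 Hox genes were higher in KO at an unadjusted edgeR p under 0.05 (Hoxc4, Hoxc5, Hoxc6, Hoxc8, Hoxc9, Hoxd4, Hoxd8 and Hoxd9), beside 10.6% of all tested genes. DESeq2 called 7 of these at its adjusted threshold, all but Hoxd4, beside 5.4%. Without WT replicate 3 the edgeR count was 7 (Hoxb3, Hoxb4, Hoxb6 to Hoxb9 and Hoxc8), beside 9.8%, and DESeq2 called 5 (Hoxb4 and Hoxb6 to Hoxb9), beside 3.95%. Without KO replicate 3 the edgeR count was 0, beside 5.92%, and DESeq2 called 0, beside 1.17%. DESeq2 also called 0 without KO replicate 1, without the library labelled KO replicate 2 and without WT replicate 2. Shares over all genes were not computed for the fits without KO replicate 1 and without WT replicate 2, so their counts have no background. WT replicate 1 was the highest WT library for the Hoxc and Hoxd sums and WT replicate 3 for the Hoxb sum.

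Hoxd8 had a log2 fold change of 2.38 without WT replicate 1 and 0.44 without WT replicate 2. Hoxb9 had 4.19 without WT replicate 3 and 0.43 without WT replicate 2, the first of these a fit to WT libraries at 11 and 0 counts. Hoxc8 stayed between 1.26 and 2.20 over all 6 omissions, with edgeR adjusted p from 0.135 to 0.591. Hoxa7 stayed between -0.17 and 0.26, and Hoxc10 ran from -2.24, without KO replicate 1, to 2.11, without WT replicate 1. Without KO replicate 1, Hoxc11 was at -3.99 and Hoxc13 at -4.28, and without KO replicate 3 Hoxb5 was at -0.13, against 0.88 with all libraries.

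**Figure D5:**
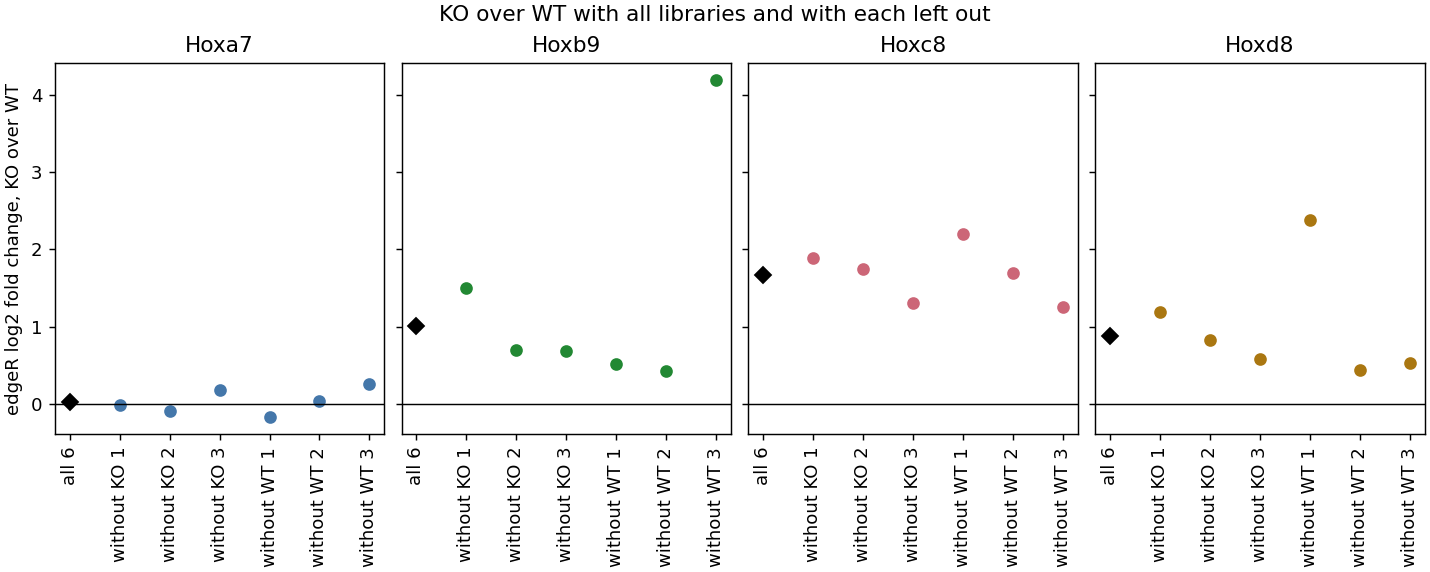
Log2 fold change of KO over WT (edgeR, y axis) for 1 gene per cluster, with all 6 libraries (diamond) and with each library left out (points, x axis). Hoxa7 stays near 0, Hoxb9 reaches 4.19 without WT replicate 3, Hoxd8 reaches 2.38 without WT replicate 1, and Hoxc8 stays above 1.

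Hox proteins bind DNA with partners of the TALE homeodomain class, the Pbx, Meis and Pknox factors. All 9 listed were tested, 7 with a positive log2 fold change, and 0 were called by edgeR or DESeq2 or passed an unadjusted edgeR p under 0.05. Without the library labelled KO replicate 2, 3 of 9 were positive and again 0 passed. Pbx2 had 45.0, 67.2 and 54.7 CPM in KO replicates 1, 2 and 3, against 44.7, 52.5 and 57.4 CPM in WT replicates 1, 2 and 3. The list summed to 253 to 286 CPM in KO libraries and 245 to 272 CPM in WT libraries. Meis3 had 11.2, 16.1 and 10.8 CPM in KO replicates 1, 2 and 3, against 9.60, 4.25 and 9.26 CPM in WT replicates 1, 2 and 3, with no overlap. Its log2 fold change was 0.72 ± 0.35 (edgeR adjusted p = 0.327) with all libraries and 0.51 (adjusted p = 0.527) without the library labelled KO replicate 2.

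Of 13 listed factors of limb position and identity, 11 had a row and 7 were tested; Pitx1 and Tbx5 were not analysed here. None was called by edgeR or DESeq2, and 1, Tbx4, was lower at an unadjusted edgeR p under 0.05, beside 7.83% of all tested genes. Tbx4, the hindlimb T-box factor, had 6.37, 3.18 and 7.29 CPM in KO replicates 1, 2 and 3, against 15.0, 9.26 and 12.0 CPM in WT replicates 1, 2 and 3. The genotypes did not overlap, and the log2 fold change was -1.11 ± 0.36 (edgeR adjusted p = 0.210) with all libraries and -0.82 (adjusted p = 0.293) without the library labelled KO replicate 2. Lbx1, made by the muscle precursors that migrate into the limb, had 47.0, 51.5 and 39.1 CPM in KO replicates 1, 2 and 3, against 52.5, 128 and 22.7 CPM in WT replicates 1, 2 and 3. Tbx3, a T-box factor of the limb margins, had 3.44, 1.03 and 9.66 CPM in KO replicates 1, 2 and 3, against 22.3, 15.1 and 3.97 CPM in WT replicates 1, 2 and 3.

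Shox2, a factor of the upper limb segment named after its values were seen, had 7.37, 11.5 and 4.01 CPM in KO replicates 1, 2 and 3, against 1.21, 0.116 and 8.79 CPM in WT replicates 1, 2 and 3. The highest library was KO replicate 2 in KO and replicate 3 in WT. For both Shox2 and Tbx3 the genotypes overlapped.

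Other transcripts of the clusters gave 13 rows of 21 listed, of which 6 were tested, 3 with a positive and 3 with a negative log2 fold change, and 0 passed an unadjusted edgeR p under 0.05 or were called by DESeq2, with or without the library labelled KO replicate 2. Hoxa11os, antisense to Hoxa11, had 8.07, 5.37 and 4.97 CPM in KO replicates 1, 2 and 3, against 4.48, 6.11 and 2.96 CPM in WT replicates 1, 2 and 3. Hotair, antisense in the posterior Hoxc cluster and named after its values were seen, had 0.747, 0 and 0.0565 CPM in KO replicates 1, 2 and 3, against 3.01, 0 and 0.318 CPM in WT replicates 1, 2 and 3. Replicate 1 of each genotype, the highest for Hoxc10 and Hoxc11, was also the highest for Hotair.

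Genes just outside the clusters were tested beside them. Of 21 listed, 17 had a row and 15 were tested, 4 with a positive and 11 with a negative log2 fold change; 0 were called by edgeR or DESeq2, with or without the library labelled KO replicate 2. Cbx5, which encodes the heterochromatin protein HP1 alpha and lies beyond Hoxc, had 363, 392 and 333 CPM in KO replicates 1, 2 and 3, against 457, 672 and 444 CPM in WT replicates 1, 2 and 3. It was the only one of the 15 at an unadjusted edgeR p under 0.05 (log2 fold change -0.53 ± 0.21, adjusted p = 0.250), beside 7.83% of all tested genes lower. Without the library labelled KO replicate 2 it was at -0.59 (edgeR adjusted p = 0.331), and 0 flanking genes passed the unadjusted threshold. Of 9 other homeobox genes listed (the Cdx and paraHox genes with Gbx1, Gbx2 and Mnx1), Gbx1 alone had a row and was not tested, at 0.498 CPM at most.

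Levels of cell type and state markers were listed beside the Hox genes. The 9 myogenic markers were all tested and summed to 19700, 11095 and 9769 CPM in KO replicates 1, 2 and 3, against 18571, 41341 and 34419 CPM in WT replicates 1, 2 and 3, with Myh3, the embryonic myosin heavy chain, as the largest single part. With all libraries 8 of the 9 had a negative log2 fold change and 1, Pax7, a positive one. DESeq2 called 2, Des and Myh3, lower in KO with all libraries, beside 2.21% of all genes. It called 0 without the library labelled KO replicate 2 (DESeq2 adjusted p = 0.0954 for Des and 0.124 for Myh3), beside 1.09% lower. For Pax7 every KO library was above every WT library, beside 13.2% of all tested genes. For Myog, Des and Itga7 every KO library was below every WT library, beside 10.2%. The log2 fold change of Pax7 was 0.66 ± 0.21 (SE; edgeR adjusted p = 0.204), and 0.65 (adjusted p = 0.305) without the library labelled KO replicate 2. The 3 cell cycle markers summed to 774, 639 and 894 CPM in KO replicates 1, 2 and 3, against 384, 203 and 305 CPM in WT replicates 1, 2 and 3. DESeq2 called all 3 higher with all libraries, beside 4.17% of all genes. It did so again without the library labelled KO replicate 2, beside 4.02%. The WT libraries lowest for Hoxc and Hoxd, replicates 2 and 3, had the highest myogenic and lowest cell cycle sums. Myh3 alone had 8567, 30671 and 24728 CPM in WT replicates 1, 2 and 3. Des, Itga7 and Cdh15 were also highest in WT replicates 2 and 3, but Myod1 and Myog were highest in WT replicate 1. The Hoxb sum followed neither marker sum, at 4.43 CPM in WT replicate 2 and 35.2 CPM in WT replicate 3. The part of differentiation state in the Hox levels was not tested.

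Markers of other cells were mostly near 0, with Col3a1, Notch3 and Rgs5 as the largest exceptions. Fibroblast markers (6 of 8 with a row) summed to 627 to 770 CPM in KO libraries and 332 to 542 CPM in WT libraries, nearly all of it Col3a1, while Pdgfra, Dcn, Ly6a and Thy1 each stayed at or below 1.25 CPM. Endothelial markers (3 of 5) summed to 1.12 to 3.16 CPM in KO libraries and 0.873 to 1.27 CPM in WT libraries, and leukocyte markers (3 of 5) to 2.24 to 4.70 CPM in KO libraries and 1.69 to 2.67 CPM in WT libraries. Schwann cell markers (3 of 4) summed to 3.45 to 5.23 CPM in KO libraries and 6.11 to 10.4 CPM in WT libraries. Smooth muscle and pericyte markers (4 of 4) summed to 290 to 374 CPM in KO libraries and 231 to 338 CPM in WT libraries, mainly Notch3, which satellite cells also make. Rgs5, of the same list, had 20.0, 18.2 and 12.0 CPM in KO replicates 1, 2 and 3, against 31.6, 2.27 and 24.9 CPM in WT replicates 1, 2 and 3. The part of these cells in the Hox levels was not tested.

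Some Hox rows may share reads. Neighbours overlap. In GENCODE vM1, exons of Hoxb7 and Hoxb8 share 1069 bases on the same strand, those of Hoxd3 and Hoxd4 1725 bases and those of Hoxa2 and Hoxa3 267 bases. Hoxb3os overlaps exons of Hoxb2 by 1632 bases and of Hoxb3 by 1140 bases on the other strand, and 12 of the 32 genes lie in a span overlap in RefSeq. The strand setting of the counting is not given in the sources used here, so levels of these genes, and the split between Hoxb7 and Hoxb8 or Hoxd3 and Hoxd4, are uncertain.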

How the data were processed

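Poly(A) RNA from 3 KO and 3 WT myoblast libraries was sequenced. Raw counts per gene were deposited by the authors without normalization. The submitters' processing notes name TopHat2 2.0.8 with Bowtie2, the counter featureCounts, FastQC and Trimmomatic for reads, DESeq2 and the build GRCm38, but no settings. The same deposited table holds the authors' normalized signal, log2 fold changes, test score, p-values and adjusted p-values. All columns were mapped to samples by name and genotype was taken from titles.

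Counts of 14835 genes kept by filterByExpr (6943 dropped), scaled by TMM, were fitted by genotype alone and compared by the two-sided quasi-likelihood F test of edgeR 4.0.16 (R 4.3.3), with Benjamini-Hochberg adjustment over all tested genes. DESeq2 1.42.0, limma-voom (limma 3.58.1), other scalings and filters, a replicate block and each library left out were alternatives. An exact permutation test of 3 against 3 cannot go below p = 0.1, so none was used. SEs were derived from the F statistic. On simulated KO against WT counts for 14835 genes with 200 changed, edgeR recovered 33% of genes changed 2-fold and 99% changed 4-fold, with 1 false call. DESeq2 recovered 42% and 98% with 26 false calls, and limma-voom 30% and 98% with 2. The changed genes were drawn only from genes above a minimum mean level, with dispersions set by their trend over level. Many tested Hox genes lay below that minimum. The median SD of log2 CPM within genotypes was 0.88 for the Hox genes, against 0.41 at like level. These recovery rates therefore do not apply to the Hox genes as a set. Same-numbered KO and WT libraries had deviation correlations of -0.25, -0.07 and 0.05, so the numbers were not used as pairs.

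Exon lengths and overlaps came from GENCODE vM1 (NCBIM37), gene names, spans and promoters from RefSeq (GRCm38.p6). Per-library values were given for the 3 Hox genes of each cluster with the highest mean CPM, for those at an unadjusted p under 0.05, without overlap or called by any tool, and for the others named as chosen later; from other lists the 2 smallest p-values and the 2 highest means were eligible, and not all are printed. Members, lists and rules were chosen with earlier results of these data known. Some genes counted in the totals are not reported here.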

Additional observations from a re-analysis of the deposited data

How the results depend on the processing

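The number of Hox genes called higher in KO was 0 with edgeR under every scaling and filter, 1 with DESeq2 and 1 in the authors' deposited table (Hoxc8 in both), and with DESeq2 it ran from 0 to 7 when each library was left out, settings added after the data were seen. The edgeR count of higher genes at an unadjusted p under 0.05 ran from 0 to 8 over the 6 omissions and that of lower genes from 0 to 1. The count with every KO library above every WT library ran from 2 to 11 over these omissions and the reverse count from 0 to 2. Over all tested genes these shares also rose with fewer libraries. Without the library labelled KO replicate 2 they went from 13.2% to 19.3% and from 10.2% to 17.6%. For the other omissions they were not computed, so these ranges have no background beside them. At 5 CPM in every library 4 Hox genes were on. The labels do not say whether same-numbered libraries are pairs. A fit with the replicate block gave 0 adjusted calls and 3 genes at an unadjusted p under 0.05 (Hoxb7, Hoxc4 and Hoxc9). The shares over all tested genes were not computed for that fit, so these counts have no background beside them. The Hox median of the fit with the block was 0.56, and its log2 fold change for Hoxc10 was -0.12. Hoxc10 was also -0.48 with limma-voom, and Hoxa6 was 0.029 with library totals alone, which shifted the median of all genes to 0.14. Genes whose log2 fold change changed sign when 1 library was left out ran over -0.11 to 0.54 for Hoxa5, -0.37 to 0.18 for Hoxa6, -0.17 to 0.26 for Hoxa7, -0.16 to 0.37 for Hoxa9, -0.19 to 0.28 for Hoxa10, -0.10 to 0.83 for Hoxa11, -0.99 to 0.54 for Hoxa13, -0.26 to 0.93 for Hoxb2, -0.13 to 1.94 for Hoxb5, -2.24 to 2.11 for Hoxc10, -3.99 to 0.89 for Hoxc11 and -4.28 to 0.55 for Hoxc13. The cause of these changes was not tested. Per-gene estimates below 1 CPM rest on few counts. The coding lengths come from GENCODE vM1, a source chosen after the files were seen because the planned protein table was not used here.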
